A study of Mus musculus with 12 samples.

Results

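The 4 libraries described here were made from NIH-3T3, an established mouse fibroblast line, in cells that received no 4-thiouridine (4sU). They were 2 libraries from methanol-fixed cells, fixed A and fixed B, and 2 libraries from RNA treated in tubes, tube A and tube B. They were chosen by the procedure and dose in their labels, and are 4 of the 12 libraries of the series. All 15217 genes of the deposited table were considered, and 11080 passed a filter on low counts. The series asked how the place of the chemical conversion step of SLAM-seq affects RNA measurements. Its other 8 libraries hold cells given 200 µM or 800 µM 4sU, 2 per dose and procedure. All cells were wild type, and the labels give a time of 2 h for every library, also for those without 4sU.

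In tubes, RNA that had already been isolated was converted at 37 °C for 1 h. The labels give 50 °C and 30 min for the conversion otherwise, which as they read applies to the fixed cells. Fixation, temperature, reaction time and the point at which RNA left the cells changed together, so their parts cannot be told apart. The labels do not state whether A and B were separate cultures. The p-values and standard errors (SE) of genes therefore reflect no more than the spread between replicate libraries, which may be technical. They come from a fit that pools this spread over all 12 libraries of the series. In bulk RNA, fewer cells of a kind and less RNA per cell cannot be told apart.

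Cells incorporate 4sU, an analogue of uridine, into newly made RNA, and alkylation with iodoacetamide then makes it read as C in the cDNA. Without 4sU there is no such label to convert, so these libraries compare total RNA levels after each handling. The labels do not state outright whether the libraries without 4sU received iodoacetamide. Messenger RNAs differ in where they sit. Long noncoding RNAs such as Malat1 and Neat1 stay in nuclear bodies, messages for secreted and surface proteins are translated on the endoplasmic reticulum, and those for ribosomal, mitochondrial and cell cycle proteins are mostly translated in the cytosol or at the mitochondrial surface. Methanol fixes cells by removing water and precipitating protein, with no covalent crosslinks.

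The tube libraries held 3629634 and 4585474 counts and the fixed libraries 5385243 and 6211608. All 14 fibroblast markers were in the table, and their summed level was 18284 and 18503 CPM (counts relative to the effective library size) in tubes, and 21304 and 19885 CPM in fixed cells. Of 24 markers of epithelium, endothelium, blood, nerve and muscle, 13 were in the table, 2 of them at 0 in all 4 libraries, and the 13 summed to between 13.1 and 18.0 CPM in each library. Of the 14 fibroblast markers, 2 were higher and 5 lower in fixed cells, with a median log2 change of −0.16 that turned to 0.04 when the trend on gene length was removed. Of the other markers, 4 passed the filter on low counts, and only the nerve marker Snap25 was called, at −2.06 (adjusted p = 0.0146), a call that was lost without tube B, fixed A or fixed B. Genes of the cytosolic ribosome took 8.51% and 9.53% of the counts in tubes and 14.5% and 14.3% in fixed cells. CPM values are relative to the rest of the library, so no change in absolute amount was measured.

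Neat1, the noncoding scaffold of nuclear paraspeckles, and Malat1, a noncoding RNA of nuclear speckles, were far lower in fixed cells, as were long messages of matrix and surface proteins such as those of Ltbp2, Igf1r and Col1a1. Short messages for ribosomal, respiratory chain and proteasome proteins were higher, with Rpl7a at 3.49-fold and Uqcrb at 2.93-fold the tube level. Messages of mitosis, led by Cdk1 at 2.86-fold, were mostly higher. Their median deposited length, 3668 bases, was above the 3385 bases over all genes tested. Of the 11080 genes, 1796 were higher in fixed cells (16.2%) and 1684 lower (15.2%), by edgeR's quasi-likelihood test with Benjamini-Hochberg (BH) adjusted p under 0.05. That is 31.4% of all genes tested. The share called depended on level. In the lowest decile of genes by mean CPM over the 4 libraries, 1.17% were higher and 3.34% lower. In the highest decile, 36.2% were higher and 18.0% lower. Both fixed libraries lay above both tube libraries in 3732 genes (33.7%) and below both in 3763 (34%). A change over 2-fold was found in 433 of those higher (3.91% of genes tested) and 495 of those lower (4.47%). The count of 3480 called genes fell to 2649 without tube A, 2271 without tube B, 2294 without fixed A and 2151 without fixed B. With scaling by library size alone, under which the median over all genes shifted by −0.17 (log2), 1172 genes were higher and 2421 lower, so that 32.6% of called genes were higher in place of 51.6%.

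**Figure D1:**
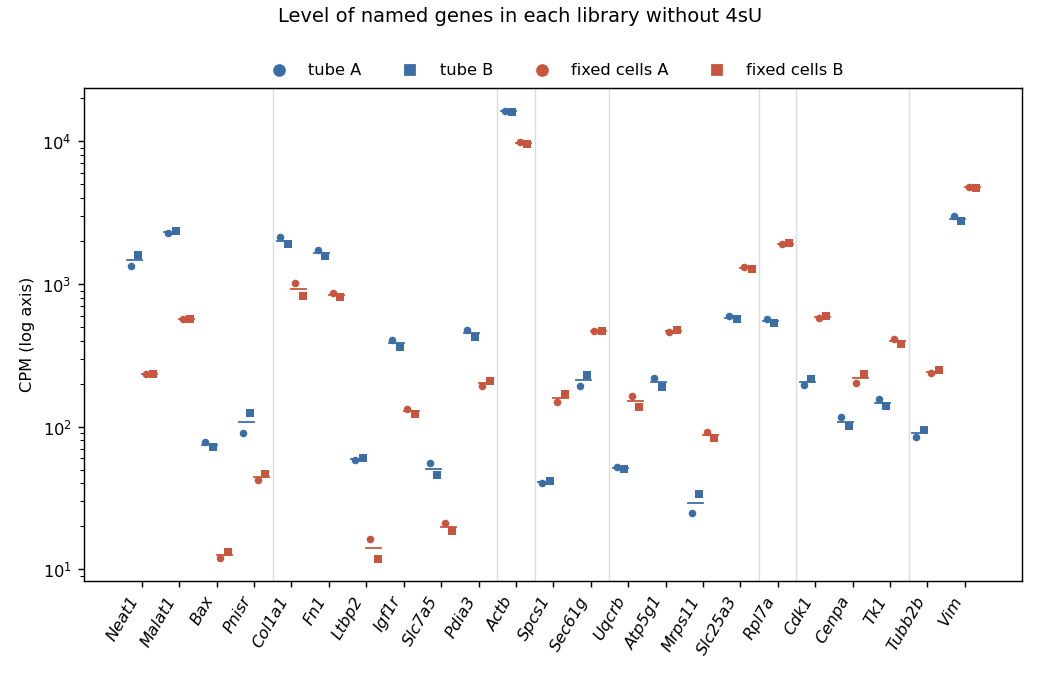
Level of 23 named genes in each of the 4 libraries without 4sU, in CPM on a log axis. Circles are replicate A, squares replicate B and bars the mean of each group (n = 2). Neat1 lies between 1345 and 1599 CPM in tubes and at 235.4 CPM in both fixed libraries, and no gene drawn has overlapping groups.

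The nuclear noncoding RNAs were taken first. Neat1 (chromosome 19, 5824708 to 5845478, minus strand, GRCm38) had 1345 and 1599 CPM in tubes and 235.4 CPM in each fixed library. The tube libraries were both higher, by 6.25-fold, a log2 change of −2.64 (SE 0.14, 2 libraries in each group, adjusted p = 2.26e-09 by edgeR). Malat1 (chromosome 19, 5795690 to 5802672, minus strand) had 2272 and 2368 CPM in tubes and 569 and 566 CPM in fixed cells. Its log2 change was −2.03 (SE 0.20, adjusted p = 3.86e-06), and the groups lay 4.09-fold apart. Per kilobase of deposited length, the mean level of Malat1 was 332 CPM in tubes and 81.3 CPM in fixed cells, and that of Neat1 was 70.9 and 11.3 CPM. Meg3, an imprinted noncoding RNA found mainly in nuclei, had 842 and 969.9 CPM in tubes and 602 and 542 CPM in fixed cells, with a log2 change of −0.66 (SE 0.19, adjusted p = 0.011).

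Of 19 nuclear noncoding RNAs listed, 9 were in the table and 6 passed the filter. Of these 6, 0 were higher, 3 were lower and 3 were not called, with a median log2 change of −0.70 beside −0.01 over all genes tested. The 3 not called were Ftx, a regulator of Xist, at −0.74, Mirg at −0.18 and Pvt1 at −0.11, each below 0. With each library's trend on length removed, the median of the 6 was −0.37 and 2 were lower, Neat1 and Malat1, so that the call of Meg3 was lost.

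Genes annotated as long intergenic noncoding RNAs (lincRNAs) gave 7 higher and 30 lower of 165 tested, with a median of −0.21. The share lower, 18.2%, was near the 15.2% over all genes tested, and the share higher, 4.24%, was below the 16.2% over all. Their median deposited length was 1832 bases, against 3385 bases over all genes tested. With the length trend removed their median was −0.52, with 3 higher and 36 lower of the 165. In that setting, 1396 were higher and 1228 lower of all 11080 genes tested. Of the 30 lincRNAs that were lower before the trend was removed, 15 had under 10 CPM in tubes. In 2 there were 0 counts in both fixed libraries, and 22 have no common symbol. In the labelled libraries, 18 of the 30 were also called lower at 200 µM and 17 at 800 µM.

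Noncoding host genes of small nucleolar RNAs, which are spliced and whose exons mostly reach the cytoplasm, gave 3 higher and 0 lower of 7. Their median was 0.38, but −0.23 with the length trend removed, so that the direction rests on that setting. Dancr, which is such a host, stood under 2 gene IDs, at 0.82 and 0.84, so the 3 calls are 2 genes, the other being Snhg18 at 0.88. With the trend removed, the Dancr entry of 1036 bases was at 0.34 (adjusted p = 0.133).

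A list of 30 genes known for transcripts held in the nucleus with an unspliced intron gave 2 higher, 10 lower and 18 not called, with a median of −0.19. The median was −0.12 and 2 were higher and 4 lower once the length trend was removed. Pnisr, a protein of splicing speckles, had 90.5 and 124 CPM in tubes and 42.5 and 46.5 CPM in fixed cells (log2 change −1.27, SE 0.19, adjusted p = 9.67e-05). Srsf11, a serine and arginine rich splicing protein, had 428 and 489 CPM against 268 and 259 CPM, a change of −0.80 (SE 0.13). The libraries of each group did not overlap for either gene. Srrm2, a scaffold protein of speckles, was also at −1.27. Of 11 SR protein genes in that list, 0 were higher and 2 lower, with a median of −0.05, and of the 4 CLK kinases that phosphorylate them, only Clk1 was called, at −0.57. Ddx5, an RNA helicase gene, was higher at 0.34. The counts do not separate spliced from unspliced RNA, so retained introns were not measured.

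**Figure D2:**
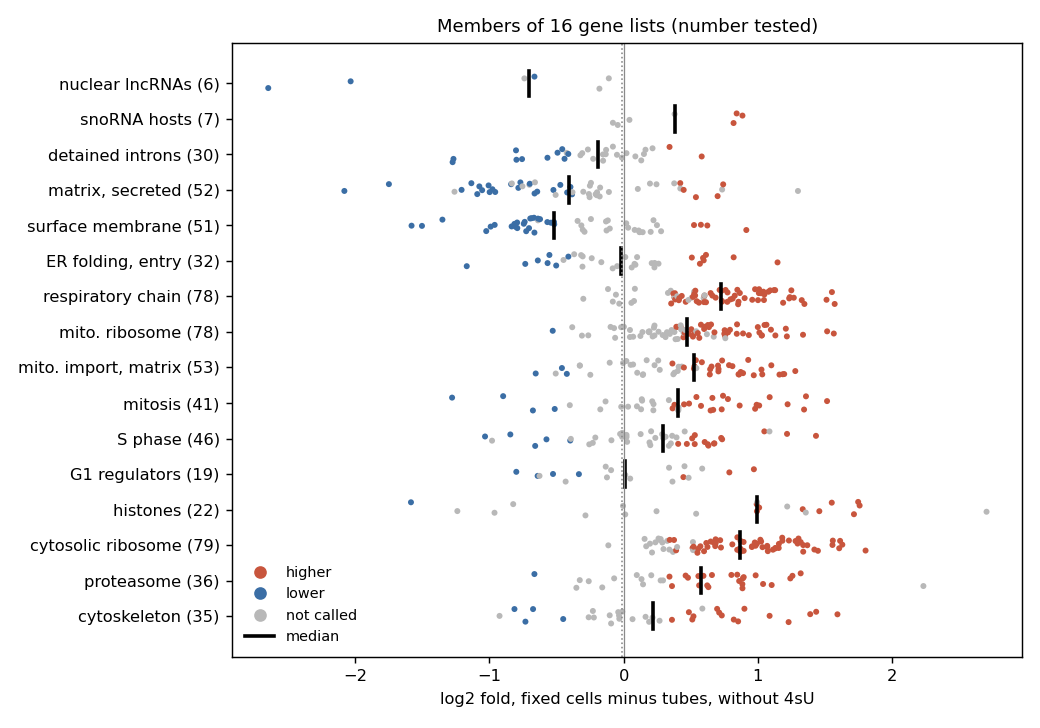
Log2 fold between fixed cells and tubes without 4sU (x axis) for the tested members of 16 gene lists (rows, with the number of genes tested). Each point is a gene, coloured by its call, the black bar is the list's median and the dotted line the median of all genes tested, −0.01. The 79 cytosolic ribosomal protein genes include 62 called higher and 0 called lower, and the 51 surface membrane genes 4 higher and 26 lower.

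Matrix and secreted protein genes were mostly lower or not called in fixed cells. Of 52 tested, 5 were higher and 22 lower, with a median of −0.41. Ltbp2, a matrix protein that binds fibrillin, had 58.5 and 59.9 CPM in tubes and 16.3 and 11.8 CPM in fixed cells, a log2 change of −2.08 (SE 0.25, adjusted p = 1.4e-05). Col1a1, the main chain of type I collagen, had 2139 and 1894 CPM in tubes and 1019 and 820.4 CPM in fixed cells, a change of −1.13 (SE 0.24, adjusted p = 0.00133). Both fixed libraries were below both tube libraries for each. Fn1, the gene of fibronectin, had 1726 and 1569 CPM against 866 and 809.9 CPM, a change of −0.98 (SE 0.17). Fbln2, a fibulin of elastic fibres, had 221 and 211 CPM against 98.1 and 105 CPM, a change of −1.09 (SE 0.12). Hspg2, the gene of the proteoglycan perlecan, was at −1.75.

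Among 11 collagen genes, 0 were higher, 6 were lower and 5 were not called, with a median of −0.77 and a range from −1.13 for Col1a1 to 0.20 for Col5a2. The median deposited length of the collagen genes was 6450 bases. Of 7 genes of proteases and their inhibitors, 2 were higher, 0 lower and 5 not called, with a median of −0.21. The members that were higher were Timp1, an inhibitor of metalloproteases, at 0.42, the lysosomal protease gene Ctsl at 0.74, the small proteoglycan gene Dcn at 0.70, and the chemokine genes Ccl2 at 0.54 and Ccl7 at 0.45. Among the 15 matrix and secreted genes shorter than the overall median of 3385 bases, the median was −0.26, while all genes of that length had 0.21. Among the 37 longer ones it was −0.47, beside −0.22 for all longer genes.

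Of 51 tested genes for proteins of the cell surface and lysosome, 4 were higher and 26 lower, with a median of −0.52. Igf1r (chromosome 7, 67952827 to 68233668), the receptor of insulin-like growth factor 1, had 408 and 360.4 CPM in tubes and 134 and 123 CPM in fixed cells. The tube libraries were 2.99-fold higher, and the log2 change was −1.58 (SE 0.18, adjusted p = 7.14e-06). Slc7a5, the light chain of a carrier of large neutral amino acids, had 55.3 and 45.6 CPM against 21.2 and 18.4 CPM, a change of −1.35 (SE 0.20). Its heavy chain partner Slc3a2 was at 0.52, and was among the 4 genes that were higher. The others were the integrin gene Itgb1 at 0.62 and the tetraspanin genes Cd81 at 0.58 and Cd151 at 0.91.

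All 6 tested genes of plexins, neuropilins, Notch2 and its ligand Jag1 were lower, from −1.02 for Nrp1 to −0.54 for Nrp2. Of 6 receptor tyrosine kinase genes, 0 were higher and 3 were lower, and of 6 carriers of amino acids, sugars and lactate, 5 were lower and 1 higher. Of 6 integrin genes, 3 were lower and 1 higher. The median length of the membrane genes was 4627 bases, and the 15 shorter than 3385 bases had a median of −0.10, beside 0.21 for all genes of that length. With the length trend removed, the median was −0.20 for membrane genes, of which 3 were higher and 17 lower, and −0.28 for matrix and secreted genes, of which 3 were higher and 16 lower.

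Genes that serve protein entry and folding in the endoplasmic reticulum had no common direction. Of 32 folding enzymes, chaperones and translocation factors, 7 were higher, 7 lower and 18 not called, with a median of −0.02 whose sign turned when tube B was left out. That is 21.9% in each direction, not far from the 16.2% higher and 15.2% lower over all genes tested, whose median was −0.01. Pdia3, a disulphide isomerase that folds glycoproteins, had 479 and 427 CPM in tubes and 193 and 210.1 CPM in fixed cells, a log2 change of −1.17 (SE 0.21, adjusted p = 0.000358). Sec61g, the small gamma subunit of the translocation channel, had 193 and 231 CPM against 470.4 and 469 CPM, a change of 1.15 (SE 0.14, adjusted p = 1.51e-05). The channel's large subunit gene Sec61a1 was lower, at −0.50, and its other small subunit gene Sec61b higher, at 0.82. The gene with the largest rise by the naming rule was Spcs1, a small subunit of the signal peptidase, which was outside this list. It had 39.9 and 41.2 CPM in tubes and 148 and 169 CPM in fixed cells, 3.90-fold higher (log2 change 1.96, SE 0.18, adjusted p = 2e-06).

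Nuclear genes of mitochondrial proteins were mostly higher. Of 78 tested genes of the respiratory chain and ATP synthase, 61 were higher and 0 lower, with a median of 0.72. Uqcrb, a small subunit of complex III, had 52.0 and 50.6 CPM in tubes and 164 and 137 CPM in fixed cells, a log2 change of 1.55 (SE 0.15, adjusted p = 3.75e-06). Atp5g1, a gene of the membrane ring of ATP synthase, had 221 and 190.1 CPM against 463 and 472 CPM, a change of 1.19 (SE 0.12, adjusted p = 3.86e-06). The groups did not overlap for either gene. The share of all counts in this list was 1.55% in each tube library, and 2.26% and 2.30% in the fixed libraries.

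By complex, 28 of 36 genes of complex I were higher, 3 of 4 of complex II and 8 of 9 of complex III. So were 10 of 11 of cytochrome c oxidase and 11 of 17 genes with an Atp5 symbol, with 0 lower in each group. Median log2 changes were 0.72, 0.52, 0.65, 0.98 and 0.53 in that order. The lowest member was Uqcrc1, a large subunit of complex III, at −0.30, and the highest Atp5f1, of the stalk of ATP synthase, at 1.57. Their median deposited lengths ran from 765 bases for cytochrome c oxidase to 2066 bases for complex II.

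Of 78 genes of the mitochondrial ribosome, 40 were higher and 1 lower, with a median of 0.47. The large subunit had 26 higher and 0 lower of 49, and the small subunit 14 higher and 1 lower of 29. Mrps11 had 24.8 and 33.7 CPM in tubes and 91.5 and 82.7 CPM in fixed cells (log2 change 1.56, SE 0.19). Mrpl27 had 31.3 and 24.2 CPM against 78.3 and 79.5 CPM (1.52, SE 0.16). The gene that was lower was Mrps34, at −0.53. Among the 17 of these genes longer than 3385 bases, 10 were higher and 0 lower with a median of 0.52, beside −0.22 for all genes of that length.

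Of 53 genes of mitochondrial import, chaperones and matrix enzymes, 28 were higher and 3 lower, with a median of 0.52. Slc25a3, the carrier that brings phosphate into the matrix, had 592 and 566 CPM in tubes and 1311 and 1278 CPM in fixed cells, a log2 change of 1.16 (SE 0.12, adjusted p = 5.32e-06). Vdac2, a channel of the outer membrane, had 237 and 227 CPM against 512 and 482 CPM, a change of 1.10 (SE 0.12). All 6 channels and carriers tested were higher, beside 8 of 18 import subunits and 8 of 17 enzymes of the citrate cycle and pyruvate dehydrogenase. With the length trend removed, the 3 mitochondrial lists kept medians of 0.30, 0.25 and 0.30, with 27, 26 and 24 genes higher and 3, 7 and 3 lower. The genome of the mitochondrion itself had 0 genes in the table.

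Cell cycle genes were taken by phase. Of 41 genes of mitosis, 21 were higher and 4 lower, with a median of 0.41. Cdk1 (chromosome 10, 69335146 to 69352938), the kinase that drives entry into mitosis, had 194 and 216 CPM in tubes and 576 and 598 CPM in fixed cells. The fixed libraries were both higher, by a log2 change of 1.51 (SE 0.16, adjusted p = 4.68e-06). Cenpa, the histone variant of centromeres, had 116 and 101 CPM against 202 and 234 CPM, a change of 1.01 (SE 0.14). Ccnb1, the cyclin partner of Cdk1, had 113 and 111 CPM against 184 and 168 CPM, a change of 0.65 (SE 0.15, adjusted p = 0.00369).

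The list's median deposited length was 3668 bases, longer than the median over all genes. A deposited length is not always that of the main message. The list's 27 members longer than 3385 bases had a median of 0.34 with 11 higher and 3 lower, beside −0.22 for all genes of that length. With the length trend removed, the list's median was 0.51, with 22 higher and 2 lower. The cyclin genes and Cdk1 were all higher (4 of 4), as were 7 of 15 kinetochore and checkpoint genes, among them Bub1 at 1.36 and Bub1b at 1.34. The 4 that were lower were the kinesin gene Kif20b at −1.28, the kinetochore scaffold Knl1 at −0.90, the checkpoint kinase Ttk at −0.67 and Mki67, the Ki-67 protein, at −0.51. Other kinesin genes went the other way, such as Kif20a at 1.22 and Kif4 at 1.09.

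Of 46 genes of DNA replication and S phase, 15 were higher and 5 lower, with a median of 0.29, or 0.25 with the length trend removed. Tk1, the thymidine kinase of S phase, had 155 and 139.6 CPM in tubes and 415 and 381 CPM in fixed cells, a log2 change of 1.43 (SE 0.15, adjusted p = 4.42e-06). Pola2, the B subunit of DNA polymerase alpha, had 62.8 and 66.0 CPM against 139 and 128 CPM, a change of 1.05 (SE 0.17). Of the 7 MCM helicase genes, 4 were higher and 0 lower, from 0.13 to 0.68. The 5 replication factor C genes split, with Rfc4 higher at 1.22 and Rfc1 and Rfc5 lower at −0.84 and −0.40. The other genes that were lower were Ccne2, a cyclin of the start of S phase, at −1.03, the catalytic polymerase gene Pole at −0.66 and Uhrf1, which binds hemimethylated DNA, at −0.57.

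Regulators of G1 gave 3 higher and 4 lower of 19, with a median of 0.01 whose sign changed under 5 of the alternatives. That is 15.8% higher and 21.1% lower, not far from the 16.2% and 15.2% over all genes tested. Removal of the length trend left 2 higher and 2 lower. Cdk6, a kinase that phosphorylates the retinoblastoma protein, had 182 and 199 CPM in tubes and 109 and 109.5 CPM in fixed cells (log2 change −0.80, SE 0.12, adjusted p = 0.00013). Its deposited length is 11525 bases, and with the length trend removed its change was −0.16 (adjusted p = 0.369). Max, the partner of Myc, had 75.5 and 72.2 CPM against 131 and 124 CPM, a change of 0.79 (SE 0.15). Ccnd1 was lower at −0.53, and the inhibitor genes Cdkn1a and Cdkn1b were higher at 0.45 and 0.97.

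Replication-dependent histone messages end in a stem-loop in place of a poly(A) tail. Of 64 in the table, 22 passed the filter, and 9 of these were higher and 1 lower, with a median of 0.99. The median dropped to 0.35 with the length trend removed, when 0 were higher and 4 lower, and to 0.08 among members that overlap no other annotated gene. Their median deposited length was 625.5 bases. Hist1h2ap and Hist1h2ao had 402 and 434, and 401 and 433, CPM in tubes and 738 and 923, and 737 and 922, CPM in fixed cells. These near-identical levels belong to near-identical copies that may share reads, so the histone values are uncertain gene by gene.

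Cytosolic ribosomal protein genes gave 62 higher and 0 lower of 79, with a median of 0.87. Both subunits did so, with 36 of 47 genes of the large and 26 of 32 of the small subunit higher. Rpl7a (chromosome 2, 26910764 to 26913318) had 570.4 and 529 CPM in tubes and 1907 and 1925 CPM in fixed cells, a log2 change of 1.80 (SE 0.14, adjusted p = 4.52e-07). Rpl23a had 1015 and 988 CPM against 3104 and 3019 CPM, a change of 1.61 (SE 0.13, adjusted p = 4.52e-07). Both genes overlap annotated small RNA genes on the same strand, and many ribosomal protein genes have processed pseudogenes that may share reads. The list's median length was 1047 bases. Its median with the length trend removed was 0.43, with 40 higher and 3 lower.

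Proteasome genes gave 23 higher and 1 lower of 36, with a median of 0.58. Removal of the length trend left 14 higher and 2 lower, with a median of 0.27. The 20S core had 13 of 16 higher and 0 lower, and the 19S cap 10 of 20 higher and 1 lower, Psmd7, at −0.66. Psmd5, an assembly chaperone of the cap, had 63.5 and 51.7 CPM in tubes and 134 and 141 CPM in fixed cells, a log2 change of 1.26 (SE 0.15). Psmd13 had 116 and 130.5 CPM against 314 and 269.6 CPM, a change of 1.24 (SE 0.15).

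The cytoskeleton list split between its proteins, with 15 higher and 4 lower of 35 and a median of 0.22. Of 8 tubulin genes, 7 were higher and 0 lower. Tubb2b had 84.7 and 95.4 CPM in tubes and 236 and 251 CPM in fixed cells, a log2 change of 1.43 (SE 0.15). Of the actins, Actb had 16460 and 16006 CPM in tubes and 9919 and 9648 CPM in fixed cells, a change of −0.73 (SE 0.14, adjusted p = 0.00063). Acta2, the smooth muscle actin, had 527 and 521 CPM against 1355 and 1390 CPM, a change of 1.39 (SE 0.14). The other cytoplasmic actin gene, Actg1, was at 0.71. Vim, the intermediate filament vimentin, had 2993 and 2758 CPM against 4827 and 4718 CPM, a change of 0.73 (SE 0.14).

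Actb and Gapdh are common reference genes, and they moved in opposite directions. Gapdh, an enzyme of glycolysis, had 199 and 139 CPM in tubes and 328 and 271 CPM in fixed cells, a log2 change of 0.82 (SE 0.23, adjusted p = 0.0113). Its call was lost without tube B (adjusted p = 0.148) and without fixed A (adjusted p = 0.101). Gapdh has many processed pseudogenes that may share its reads. The directions of Actb and Gapdh were the same under every alternative in which they were tested, including scaling by library size alone.

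Of the remaining lists, immediate early genes gave 4 higher (11.1%) and 8 lower (22.2%) of 36, beside 16.2% and 15.2% over all genes tested. Their median was −0.24, and stayed at −0.24 with the length trend removed. Nr4a2, an orphan nuclear receptor, had 49.8 and 56.7 CPM in tubes and 26.3 and 21.6 CPM in fixed cells, a log2 change of −1.16 (SE 0.18). Cytosolic heat shock genes gave 6 higher (26.1%) and 3 lower (13.0%) of 23. The small heat shock protein gene Cryab was at 1.38 and the cochaperone gene Bag3 at −1.21. The list's median of 0.17 was slightly below 0 with scaling by library size alone. Zinc finger genes with a Zfp symbol gave 7 higher and 37 lower of 297 with a median of −0.11. Their share of lower genes, 12.5%, was below the 15.2% over all genes tested. Their share of higher genes, 2.36%, was further below the 16.2% over all. With the length trend removed, 7 were higher and 13 lower. Genes with the symbol of a translation initiation or elongation factor gave 17 higher (27.4%) and 3 lower (4.84%) of 62. Their median was 0.24. Glycolysis had 3 higher and 3 lower of 17 (17.6% each), near the shares over all genes tested. Cholesterol synthesis had 1 higher (5%) and 4 lower (20%) of 20. The medians of these 2 lists were 0.09 and 0.00, and the signs of both turned under at least 1 alternative.

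Among genes outside these classes, Bax (chromosome 7, 45461697 to 45466898), whose protein opens the mitochondrial outer membrane in apoptosis, had the second largest fall by the naming rule. It had 77.5 and 71.6 CPM in tubes and 12 and 13.3 CPM in fixed cells, 5.87-fold higher in tubes (log2 change −2.55, SE 0.20, adjusted p = 4.52e-07). Its deposited length is 1100 bases, so it went against most short genes, and with the length trend removed its change was −3.03. Zfhx3, a large homeobox transcription factor gene, had 212 and 259 CPM against 59.4 and 60.6 CPM, a change of −1.98 (SE 0.23). The other large falls were Mical3 at −1.84, Zbed6 at −1.80, Mertk at −1.80, Atxn2 at −1.79 and Rreb1 at −1.78. Zbed6 lies within an intron of Zc3h11a on the same strand, so its reads and those of Zc3h11a cannot be told apart.

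The 10 largest rises lay between 1.73 and 1.96, from Selenof, Mgst1, Pex14, Nup205, Cuta, Wdr83os, Rpl7a, Hspb11 and Etfdh to Spcs1. Cuta had 104 and 87.2 CPM in tubes and 334 and 309.9 CPM in fixed cells (1.75, SE 0.14). Wdr83os, a short gene of the endoplasmic reticulum membrane, had 58.0 and 64.4 CPM against 206 and 215 CPM (1.78, SE 0.14). Nup205, a scaffold of the nuclear pore, was the longest of the 10 at 6412 bases, with 8.66 and 5.35 CPM against 21.8 and 24.6 CPM (1.75, SE 0.28). Of the 67 gene entries that the naming rule took, 20 overlap another annotated gene on the same strand, 35 on the opposite strand and 23 none. The sources used here do not say whether counting used strand, so reads of overlapping genes cannot be told apart.

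The fold followed the deposited length over the whole table. Spearman's correlation between length and the log2 change was −0.416 across the 11080 genes, as a description over genes that share their libraries. In the shortest decile of genes, up to 1374 bases, the median log2 change was 0.52, with 484 of 1108 genes higher and 31 lower. In the longest decile, from 6755 bases, it was −0.50, with 23 higher and 475 lower. Each decile from the shortest to the longest had a lower median than the decile before it.

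**Figure D3:**
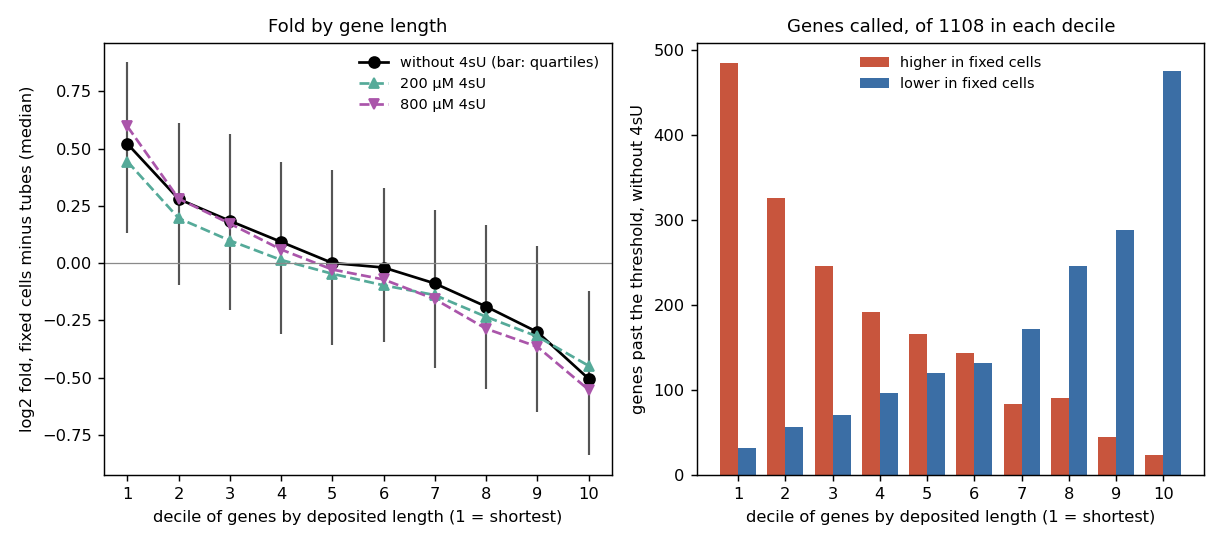
Left, median log2 fold between fixed cells and tubes in deciles of the 11080 tested genes by deposited length, without 4sU (black, with bars from the lower to the upper quartile) and in the libraries at 200 µM and 800 µM 4sU. Right, number of genes called higher and lower without 4sU in each decile. The medians run from 0.52 in the shortest decile to −0.50 in the longest, and the calls from 484 higher and 31 lower to 23 higher and 475 lower.

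The same pattern was read within each library, from its own levels. Spearman's correlation between log2 CPM and length was 0.0395 in tube A and 0.0364 in tube B, and −0.0747 in fixed A and −0.0771 in fixed B. Both tube libraries were above both fixed libraries. The exact permutation test on these 4 libraries gave a two-sided p of 0.333, the smallest it can give. Over all 12 libraries, permuted within the 3 doses, fixed cells were lower by 0.110 on average with an exact two-sided p of 0.00926, the smallest that 216 arrangements can give. The count-weighted median length was 2984 and 2955 bases in tubes and 2504 and 2501 bases in fixed cells.

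The deposited length equals that of an annotated GENCODE transcript in 92.1% of genes, and is not always that of the main message. In 599 protein-coding genes tested, among them Vim, Gapdh and Cenpa, the transcript of that length (the longest where none matched) has 1 exon. Across the 9103 genes whose transcript of that length has a coding sequence, Spearman's correlation of length with the log2 change was −0.438. In these, it was −0.378 for the length of the coding sequence and −0.263 for that of the 3′ untranslated region. Within terciles of genes by total length, the correlation for the coding sequence stayed below 0 (−0.197, −0.138 and −0.252). That for the 3′ untranslated region was −0.156, 0.079 and 0.032. Total length itself still correlated with the log2 change within these terciles (−0.256, −0.103 and −0.257 over all genes tested). The terciles therefore do not hold length constant. GC content had a Spearman's correlation of −0.0998 over all genes, and −0.185, −0.253 and −0.204 within the terciles.

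The new-to-total ratio, the deposited share of newly made RNA per gene, was taken from the tube libraries with 4sU, which are no part of this comparison. Its Spearman's correlation with the log2 change was −0.284 across 11039 genes, and −0.233, −0.185 and −0.168 within terciles of length. In each tercile, genes with a higher ratio thus tended to have lower log2 changes, though length still varied within a tercile. The 1827 short genes with a low ratio had a median of 0.41, with 765 higher and 82 lower, and the 1578 long genes with a high ratio had a median of −0.40, with 32 higher and 508 lower. Short genes with a high ratio were at 0.06 and long genes with a low ratio at −0.14.

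Removing each library's trend on length left 2624 called genes, 1396 higher and 1228 lower, of which 2090 were called in the same direction before. The changes of several long or short named genes became smaller. Neat1 went from −2.64 to −1.72, Igf1r from −1.58 to −0.94 and Rpl23a from 1.61 to 0.87. Cdk1 went from 1.51 to 1.64 and Atp5g1 from 1.19 to 1.36. Their deposited lengths are 4375 and 4715 bases, with coding sequences of 891 and 408 bases. Values with the trend removed rest on the deposited length, which may not be that of the main message.

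**Figure D4:**
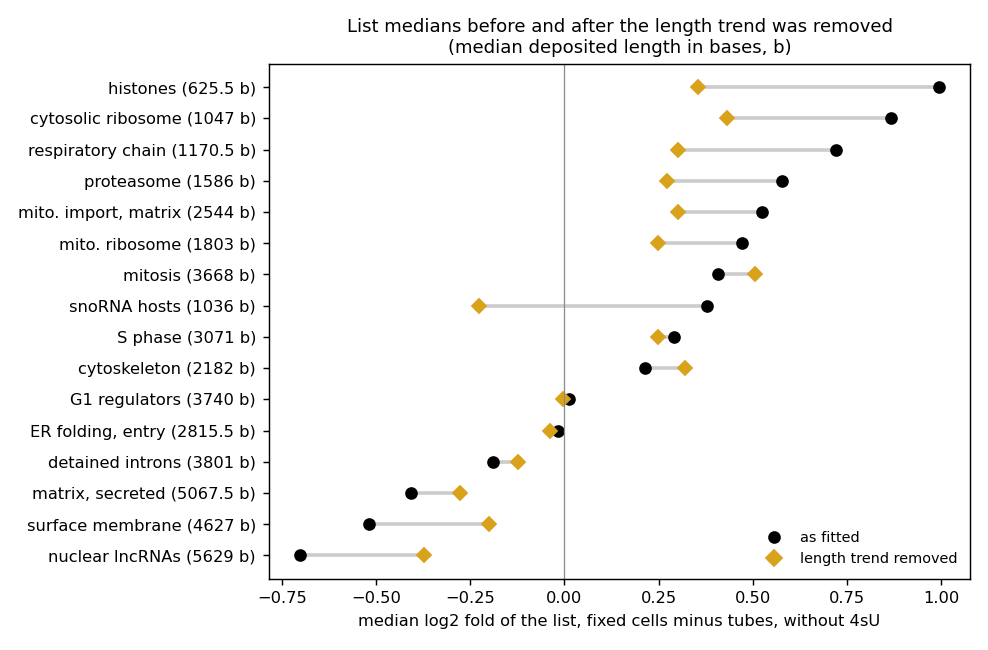
Median log2 fold between fixed cells and tubes without 4sU of 16 gene lists (rows, with the median deposited length in bases, b), as fitted (black circles) and with each library's trend on length removed (yellow diamonds). The mitosis list moves from 0.41 to 0.51 and the surface membrane list from −0.52 to −0.20, and the host genes of small nucleolar RNAs cross 0.

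The same difference between procedures was measured in the libraries with 4sU, which share no library with those without it. At 200 µM, 1613 genes were higher and 1967 lower in fixed cells (32.3% called), and at 800 µM 1856 and 2033 (35.1%). Of the 1796 genes higher without 4sU, 96.0% were above 0 at 200 µM and 97.4% at 800 µM, and 1178 and 1323 were called higher there. Of the 1684 lower without 4sU, 96.4% and 98.2% were below 0, and 1174 and 1269 were called lower. Over all 11080 genes, 78.0% at 200 µM and 80.3% at 800 µM had the same sign as without 4sU. Spearman's correlation between the log2 changes was 0.709 at 200 µM and 0.752 at 800 µM across 11080 genes, as a description.

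**Figure D5:**
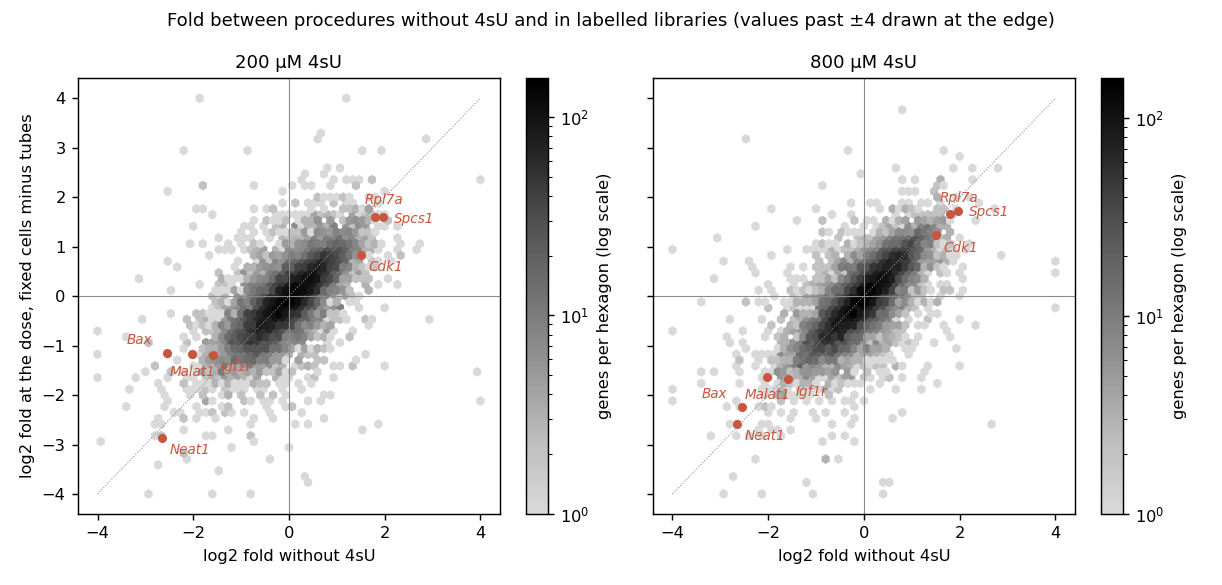
Log2 fold between fixed cells and tubes without 4sU (x axis) against the same fold at 200 µM (left) and 800 µM 4sU (right), for 11080 genes. Darker hexagons hold more genes, on a log scale, the dotted line marks equal folds, and 7 named genes are drawn in red. Neat1 lies near that line at both doses, and Bax lies at −1.15 on the y axis at 200 µM and at −2.25 at 800 µM.

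Among the named genes, Neat1 was at −2.87 and −2.58 at the 2 doses, Igf1r at −1.19 and −1.68, Rpl7a at 1.61 and 1.65, Spcs1 at 1.59 and 1.73, and Cdk1 at 0.83 and 1.23. Malat1 was at −1.17 and −1.64. Further large falls were Mical3 at −1.57 and −1.37, Zbed6 at −1.35 and −1.47, and Mertk at −1.70 and −1.57. Atxn2 was at −0.68 and −1.53, against −1.79 without 4sU. Rreb1 was at −0.50 (adjusted p = 0.143 by edgeR) and −0.72, against −1.78 without 4sU. Whether the difference between procedures itself changed with 4sU was tested as an interaction over all genes. By edgeR 0 genes passed at 200 µM and 0 at 800 µM, with 993 (8.96%) and 654 (5.90%) at an unadjusted p under 0.05. DESeq2 called 11 and 0.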

How the data were processed

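One deposited table was used. The authors deposited expected counts, estimated counts of reads per gene and library. In these 4 libraries 16.2% to 17.5% of them were not whole numbers. The new-to-total ratio is a fraction, per the file headers, and was used from the tube libraries with 4sU only. The submitters' processing notes list cutadapt, Bowtie2 (2.3.0) and STAR (2.7.10b) but no roles. Genome build and annotation were not given in the sources used here. Another 40 per-sample columns were not used.

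Counts were rounded, filtered with filterByExpr (minimum count 10, minimum total 15), scaled by TMM and tested with edgeR (4.0.16, R 4.3.3; quasi-likelihood F test, BH adjustment over the 11080 genes). All 12 libraries entered a single fit of 6 group means, with 6 residual degrees of freedom, a median of 12.1 prior degrees of freedom and a common biological coefficient of variation of 12.3%. The 4 libraries without 4sU held 3629634 to 6211608 counts, and their replicates differed by more than sampling noise (chi-square per degree of freedom 5.83 in tubes and 3.23 in fixed cells). In the groups with 4sU, which share the estimate of the spread, it ran from 6.21 (tubes, 800 µM) to 22.8 (fixed cells, 800 µM). DESeq2 1.42.0 was an alternative. Scripts were tested on simulated data. GENCODE M21 (GRCm38) holds 15197 of the gene IDs and lacks 20, and gave the coordinates. Length is the deposited value, and its trend was removed by a loess curve (span 0.5) on log10 length in each library as an edgeR offset.

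The members and the 25 gene lists were chosen with earlier results of these data known. By rule, the text names the 10 largest rises and falls with a mean count of at least 50, groups that do not overlap and a common symbol, the 2 called members of each list with the smallest p, and Gapdh, Actb, Malat1, Neat1, Col1a1 and Ccnb1. Meg3, and list members given with a log2 change but no levels, were named after their values were seen. Families within lists were formed after the data were seen. Not every called list member is reported by name here.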

Additional observations from a re-analysis of the deposited data

How the results depend on the processing

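The number of called genes, 3480, was within 1.5 times under the other scalings, filters and tools tried, from 3256 with DESeq2 to 4113 in a fit of only the 4 libraries, and with the trend on length removed (2624) or on length and GC (2579). With 1 library left out it ranged from 2151 to 2649, with 1088 to 1402 higher and 1057 to 1247 lower. Restricted to the 4839 genes that overlap no other annotated gene, it was 1463 (763 higher, 700 lower), where fewer genes were tested. Scaling by library size alone gave 1172 higher. Spearman's correlation with length ranged from −0.402 to −0.374 with 1 library left out, and was −0.499 at a mean count of at least 50. The cause was not tested.

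The interaction counts of 0 became 76 (200 µM) and 24 (800 µM) with no filter on low counts and 11 with DESeq2 at 200 µM, and ranged from 0 to 3 at 200 µM with 1 library left out, the 3 without tube B. The cause was not tested. All 67 named entries kept their direction in every alternative that held them, 65 passed with each library left out (Snap25 and Gapdh did not), and 59 passed under every alternative. With the length trend removed, alone or with GC, calls were also lost for Zfp451, Cdk6, Fosl2, a Dancr entry, Hist1h2ap and Hist1h2ao.

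The letters A and B do not mark pairs as far as the labels say. The A minus B differences of tubes and fixed cells without 4sU correlated at −0.130 across 8516 genes. Over all pairs of groups in the series, such correlations ran from −0.207 (fixed cells, 200 µM and 800 µM) to 0.259 (tubes, without 4sU and 800 µM). A replicate block gave 3353 calls, and the crossed block 3355. The alternatives of library size alone, the crossed block, GC and overlapping genes were chosen after seeing the data. Depth limits weak genes: over the 12 libraries, of 3629634 to 7762635 counts, 4137 of 15217 genes did not pass the filter.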
